A study of Drosophila melanogaster with 21 samples.

Results

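Not1 and Pop2 are subunits of the CCR4-NOT deadenylase complex. A set of 41 genes with a numbered name (a CG number) in the authors' table stood higher when either was knocked down. Most of these genes stood at low levels in control DL1 cells. They were chosen from the group means of the knockdown experiment by 3 conditions. The name had to be CG followed by digits, the gene had to lie off chromosome 4, and the log2 ratio of the mean normalized count plus 5 over that of the LacZ RNAi control had to be at least 2 in Not1 RNAi and in Pop2 RNAi. These conditions were met by 41 of 6479 numbered genes off chromosome 4, in a table of 17555 genes. A further 91 genes with a symbol met both ratio conditions, which makes 132 genes in all. Among genes tested by the authors, 1.45% of all 9051 genes and 1.27% of 3157 numbered genes passed both ratios. The levels in LacZ RNAi, Not1 RNAi and Pop2 RNAi made the choice, so they are given below as a description.

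CCR4-NOT shortens the poly(A) tail of messenger RNAs, the step that usually opens their decay. Not1 is the large scaffold on which the other subunits sit, and Pop2 (CAF1) is one of its catalytic deadenylases. Pumilio is an RNA-binding protein of the PUF family that binds short motifs in 3′ untranslated regions and lowers the output of its targets, in part by recruiting CCR4-NOT.

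The 21 samples came from DL1, a line of Drosophila melanogaster cells with hemocyte character, in 7 groups of 3. In the knockdown experiment wild-type DL1 cells took up 20 µg of double-stranded RNA during a bath of 60 min and were harvested after 48 h. The RNA targeted pum (Pum RNAi), Not1 (Not1 RNAi), Pop2 (Pop2 RNAi) or, as control, the bacterial LacZ gene (LacZ RNAi). In the knockout experiment 2 clonal isolates without pum (Pum KO clone 1 and Pum KO clone 2) were set against their parental wild-type line (WT), and none of these 9 cultures was described as having received double-stranded RNA. The 3 samples of a knockout group come from 1 isolate, so a difference between a clone and WT holds whatever else differs between that isolate and its parent. Which part of pum was deleted is unknown from the sources used here. Poly(A)-selected RNA was sequenced by ClickSeq, in which reverse transcription stops at azido-nucleotides and adapters are joined by click chemistry. Selection on the poly(A) tail means that a change in tail length can enter the measured level.

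The deposited values are group means of normalized counts, from which the whole reads of the 3 libraries of a group were solved; the libraries are lettered A to C from the deepest to the shallowest, and the letters are not the submitters' replicate numbers. Solved reads per library ranged from 1086374 to 7041977. The shallowest library stood apart in both LacZ RNAi (library C correlated at 0.905 and 0.902 with the others, which correlated at 0.986) and Not1 RNAi (0.924 and 0.923 against 0.994), while every pair in the other groups correlated at 0.987 or more. One read was worth 0.623 to 2.17 normalized counts in all libraries but Not1 RNAi C, where it was worth 4.12. The mean of pum was 1755 in LacZ RNAi and 542.6 in Pum RNAi, that of Not1 16830 and 1748 in Not1 RNAi, and that of Pop2 575.9 and 28.7 in Pop2 RNAi. In the knockout table pum was at 3029 in WT, 1036 in clone 1 and 2122 in clone 2, and whether these reads cover the deleted part is unknown. Of 12 hemocyte markers, 9 reached 20 normalized counts in LacZ RNAi and 11 in WT, while 4 gut markers and 5 of 6 testis markers stayed below 1 in LacZ RNAi. Markers of other lists were present there too: 4 of 5 epithelial markers, 3 of 9 germline and gonad markers (tj at 2340), 2 of 7 neuronal markers (elav at 1090), 1 of 6 muscle markers (Tm1) and 1 of 4 fat body markers (FASN1) reached 20. Because RNA was pooled over cells, fewer expressing cells and less RNA per cell cannot be told apart in any value below.

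In control cells most of the 41 genes were low, and many were close to the limit of detection. Their median was 7.58 normalized counts in LacZ RNAi, where 24 were under 10 and CG13559 and CG6901 had no read in any library; 3 reads would have been worth 2.96 to 6.51 normalized counts there. The range was wide, with 4 genes at 100 or more and CG45263 highest at 1161.5. Per kb of transcript the median was 2.44 normalized counts, against 47.6 for all genes detected in LacZ RNAi. In Not1 RNAi the median level rose to 312 and in Pop2 RNAi to 117 normalized counts, which is 118 and 52 per kb against 43.5 and 41.9 for all detected genes. As the choice requires, no gene was under 10 in either knockdown. In Pum RNAi the median stayed at 9.31 normalized counts, or 3.41 per kb.

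**Figure D1:**
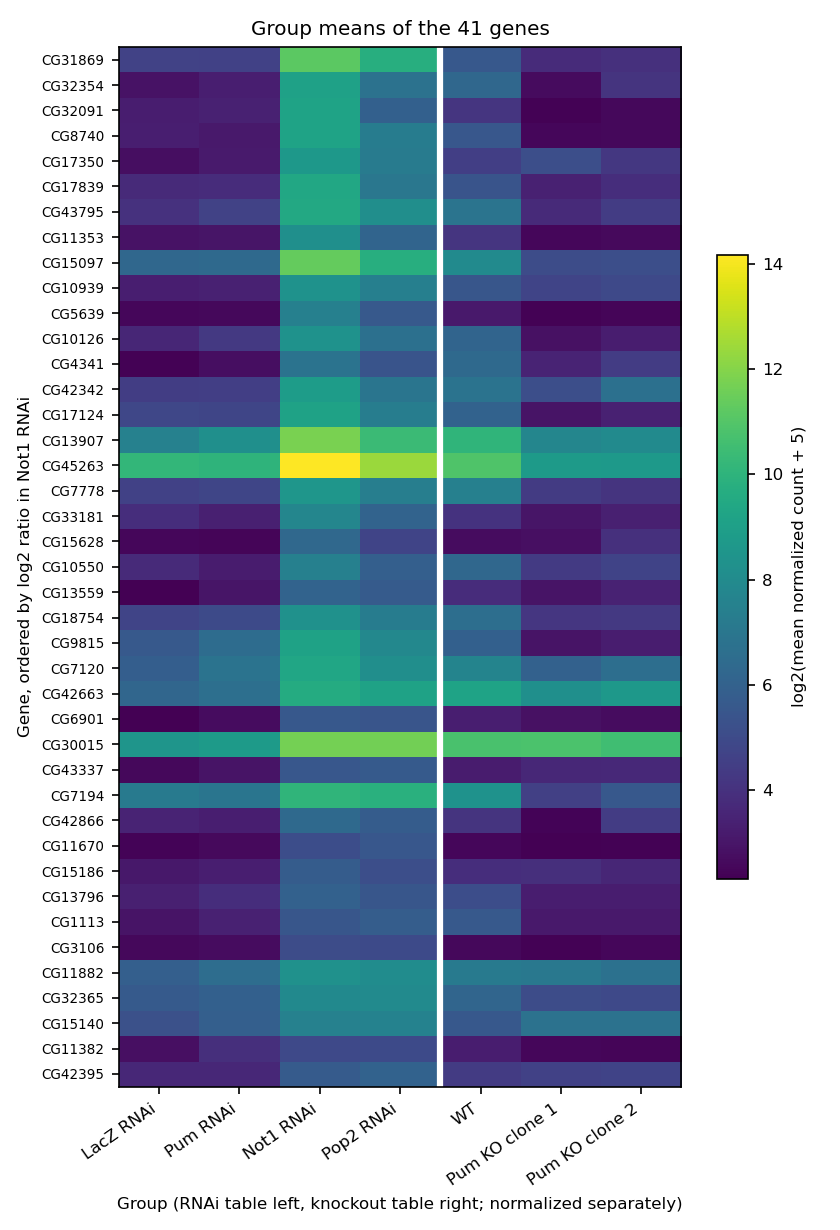
Group means of the 41 genes as log2(mean normalized count + 5), 1 row per gene in order of the log2 ratio in Not1 RNAi and 1 column per group, with the RNAi table left and the separately normalized knockout table right. The Not1 RNAi and Pop2 RNAi columns are brighter than LacZ RNAi in every row because the genes were chosen so, the Pum RNAi column resembles LacZ RNAi (medians 9.31 and 7.58), and most rows are darker in the clones than in WT (medians 7.39 and 12.3 against 43.6).

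The Not1 ratio was larger than the Pop2 ratio for 34 of the 41 genes. Over the 40 genes with a test, the log2 ratio in Not1 RNAi had a median of 3.76 (2.07 to 6.55) and that in Pop2 RNAi a median of 2.75 (2.09 to 5.09). The 91 genes with a symbol past the same ratios had their medians in the same order, 3.52 and 2.49. More of all genes tested were also called higher in Not1 RNAi than in Pop2 RNAi, by the shares given next. The order therefore does not set the 41 genes apart, and both ratios were used in the choice. The authors' deposited table calls all 40 higher in both knockdowns at an adjusted p below 0.05, beside 25.7% of all genes tested in Not1 RNAi and 18.8% in Pop2 RNAi; the same means chose the genes, so nothing follows from that count. CG32354 has no p-value in the RNAi comparisons of the authors' deposited table. In the 40 genes solved for single libraries, every Not1 RNAi and every Pop2 RNAi library lay above every LacZ RNAi library. At a mean of at least 5, 27.0% of 7364 and 27.9% of 7306 genes did so. These libraries make up the means that chose the genes, so nothing follows from this separation either.

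**Figure D2:**
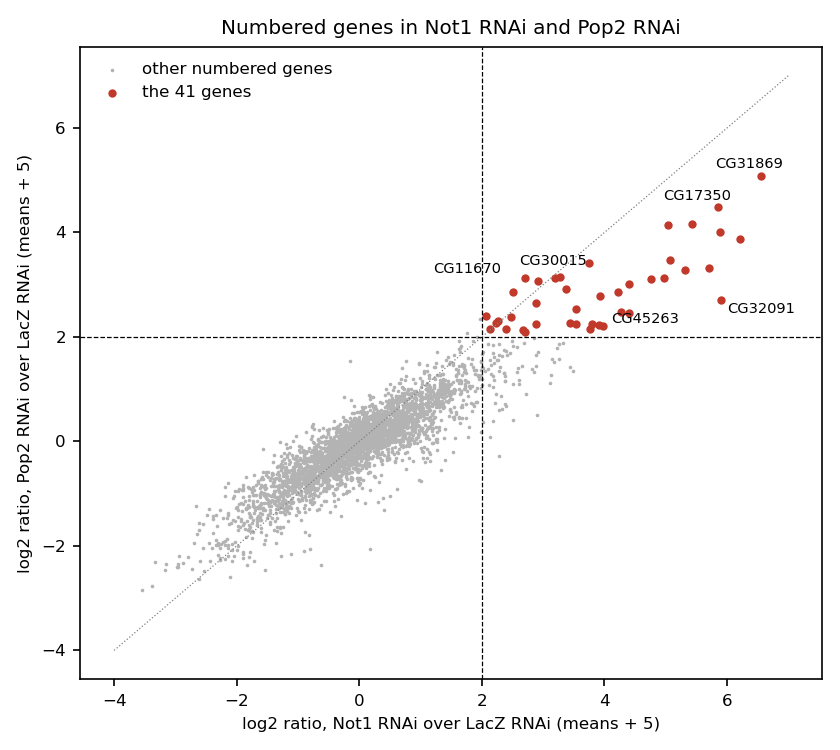
Log2 ratio over LacZ RNAi in Not1 RNAi (horizontal) and Pop2 RNAi (vertical) for numbered genes, computed from deposited means plus 5, with the 41 genes in red, dashed lines at the threshold of 2 and a dotted line of equality. The 41 genes fill the upper right corner by construction, 34 of them below the line of equality, and CG31869 lies farthest out at 6.55 and 5.09.

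CG31869, on chromosome 2L from 10772038 to 10801109 (dm6, minus strand), had the largest ratios. Its LacZ RNAi libraries held 8.87, 18.6 and 32.5 normalized counts, its Not1 RNAi libraries 1978, 1531 and 3505, and its Pop2 RNAi libraries 692.5, 893.3 and 954.5. The lowest library of either knockdown was therefore more than an order of magnitude above the highest control library. The ratio of means plus 5 was 93.7-fold in Not1 RNAi and 34.1-fold in Pop2 RNAi. Pum RNAi left it at 19.3, 18.8 and 21.0, inside the LacZ RNAi range.

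CG17350 (2L, 19380930 to 19383093) went from 0.985, 2.19 and 2.17 normalized counts in LacZ RNAi to 419.8, 367.1 and 378.9 in Not1 RNAi and 127.2, 137.4 and 174.4 in Pop2 RNAi. Its control values rest on 1 or 2 reads a library. The knockdown libraries agreed closely, and the log2 ratios were 5.86 and 4.48.

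CG8740, which RefSeq names blo (2R, 8735810 to 8759590), held 7.88, 4.38 and 2.17 normalized counts in LacZ RNAi. Not1 RNAi brought it to 516.7, 508.0 and 700.1, and Pop2 RNAi to 170.0, 155.6 and 134.6. The 3 groups did not overlap, and the Pop2 RNAi libraries lay well below the Not1 RNAi libraries.

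CG10939 (2R, 17394593 to 17405171) has the RefSeq synonym Sip1, a scaffold protein of the NHERF family that acts with the kinase Slik on the membrane linker Moesin. It held 4.93, 7.67 and 2.17 normalized counts in LacZ RNAi, 394.0, 318.3 and 255.3 in Not1 RNAi, and 129.2, 172.3 and 205.7 in Pop2 RNAi. Here the gap between the knockdowns was small: the lowest Not1 RNAi library was next to the highest Pop2 RNAi library.

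CG15097 (2R, 18822188 to 18829699) was among the most abundant. It held 101.5, 94.2 and 23.9 normalized counts in LacZ RNAi, 2771, 2294 and 2755 in Not1 RNAi, and 839.0, 816.6 and 935.5 in Pop2 RNAi. LacZ RNAi library C lay below the other controls by about the same margin as for CG30015, and without it the log2 ratio in Not1 RNAi was 4.67 in place of 5.06.

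CG4341 is the only gene of the 41 that both annotation tables used here rename: it is Tmtc2 (2L, 922793 to 958098), whose mammalian relatives are O-mannosyltransferases of the endoplasmic reticulum that act on cadherins. A single read was found in LacZ RNAi, in library A (0.985 normalized counts). Not1 RNAi libraries held 125.8, 87.0 and 111.2 and Pop2 RNAi libraries 38.7, 41.7 and 33.2, so the groups did not overlap. The log2 ratios were 4.41 and 3.01.

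The gene with the highest level, CG45263 (3R, 8364328 to 8477617), went from 1187, 933.0 and 1364 normalized counts in LacZ RNAi to a mean of 18414.7 in Not1 RNAi and 5423.3 in Pop2 RNAi, where single libraries could not be solved. Per kb it stood at 85.6 in LacZ RNAi and 1360 in Not1 RNAi. CG13907 (3L, 877291 to 882013) rose from 176.3, 182.9 and 184.4 to 2721, 2594 and 5144 in Not1 RNAi and 1451, 1355 and 1240 in Pop2 RNAi. CG7194 (3L, 8302364 to 8304059) held 142.8, 118.3 and 164.9 in LacZ RNAi, 1243, 1227 and 782.5 in Not1 RNAi and 903.2, 916.8 and 923.2 in Pop2 RNAi. For CG7194 the knockdowns overlapped, since Not1 RNAi library C was the lowest of the 6.

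CG30015 (2R, 10839102 to 10874771) was the other abundant gene with near-equal values in both knockdowns. Its libraries held 482.7, 466.5 and 117.1 normalized counts in LacZ RNAi, 3892, 3778 and 2253 in Not1 RNAi, and 3448, 3337 and 2699 in Pop2 RNAi. The knockdowns overlapped each other and neither overlapped the control, and the log2 ratios were 3.20 and 3.13.

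The 5 genes with the largest excess of the Not1 ratio over the Pop2 ratio were CG32091, CG17839, CG32354, CG11353 and CG42342, and for all 5 the excess was smaller without Not1 RNAi library C. CG32091 held 205.3, 170.7 and 1338 normalized counts in Not1 RNAi against 58.7, 54.6 and 59.7 in Pop2 RNAi. CG32354 held 190.9, 166.6 and 1289 against 94.0, 91.8 and 128.0. Library C was 7.12 and 7.21 times the mean of A and B in these 2 genes, and A and B were also above every Pop2 RNAi library. Without library C the log2 ratio in Not1 RNAi was 4.32 for CG32091 (5.90 with it), 4.61 for CG32354 (6.21), 5.17 for CG17839 (5.71), 3.55 for CG42342 (4.40) and 5.04 for CG11353 (5.31). Library C was at least 2 times the mean of A and B in 9 of the 40 solved genes and at most 0.5 of it in 4. Without it, 34 of the 40 genes still had the larger ratio in Not1 RNAi, against 33 with it.

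The reverse order was seen in 7 genes, and the excess of the Pop2 ratio was small in all of them. The largest were in CG11670 (log2 ratios 2.71 in Not1 RNAi and 3.13 in Pop2 RNAi), CG1113 (2.51 and 2.86), CG42395 (2.07 and 2.40), the noncoding CG43337 (2.92 and 3.06) and CG15140 (2.22 and 2.27). CG11670, with the RefSeq synonym SP27 of a serine protease series, held 32.6, 24.9 and 32.9 normalized counts in Not1 RNAi and 36.6, 40.2 and 49.3 in Pop2 RNAi, from 0, 1.10 and 0 in LacZ RNAi. CG1113 held 56.8, 44.8 and 16.5 in Not1 RNAi and 51.1, 37.9 and 65.4 in Pop2 RNAi, which overlap, and without Not1 RNAi library C its ratios differed by 0.02. CG43337 is annotated in Ensembl as a long noncoding RNA.

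The genes nearest the threshold were CG42395, CG15186 and CG11382 on the inside, with a smaller ratio of 2.07, 2.09 and 2.13. On the outside were CG4404 (1.97 in Not1 RNAi and 2.34 in Pop2 RNAi), CG42260 (2.85 and 1.97) and CG30377 (2.49 and 1.93). Leaving out LacZ RNAi library C took CG13796, CG7120, CG15186, CG10550, CG11882, CG11382 and CG42395 below the threshold, so these 7 rest on that library. Other single libraries mattered too. CG33181 was lost without LacZ RNAi library A and CG42866 without LacZ RNAi library B. CG11382 and CG42395 were lost without Not1 RNAi library A, CG42395 also without Not1 RNAi library B, and CG15186 without Pop2 RNAi library A.

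**Figure D3:**
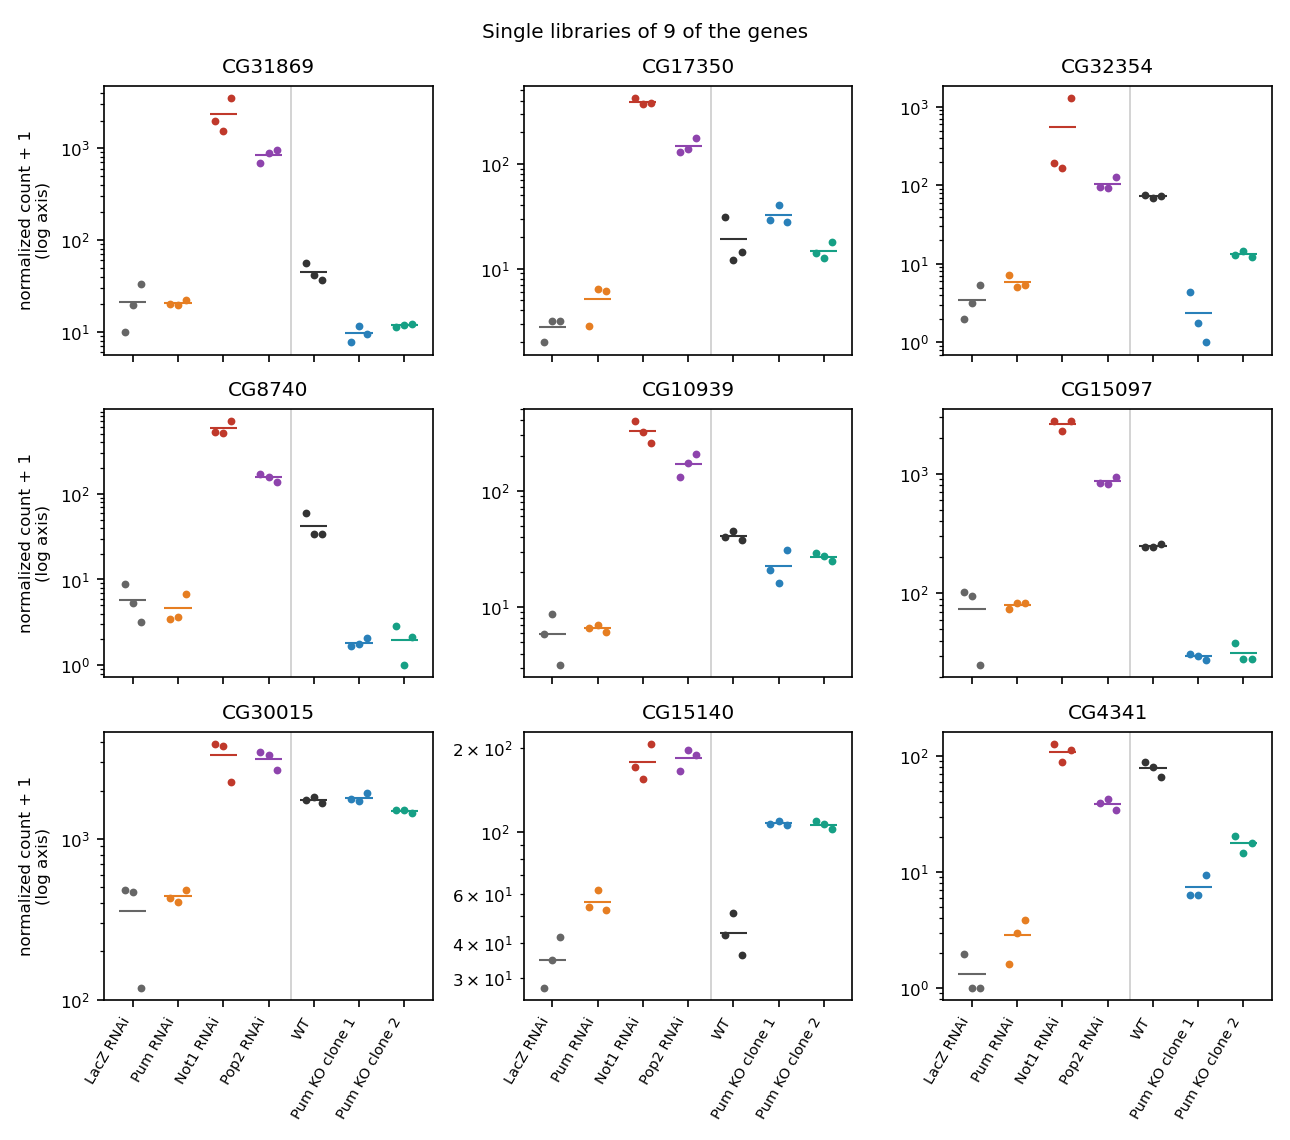
Normalized counts plus 1 of single libraries (points, log axis) and group means (lines) for 9 of the genes in all 7 groups; a grey line divides the separately normalized RNAi and knockout tables. Not1 RNAi and Pop2 RNAi points lie above all LacZ RNAi points in each panel, Not1 RNAi library C of CG32354 lies apart at 1289, and the clones lie below WT for CG31869, CG32354, CG8740, CG10939, CG15097 and CG4341 but above it for CG15140.

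With all libraries, no gene of the set passed the test in Pum RNAi. The comparison asks whether loss of Pumilio raises the genes that rise without CCR4-NOT. None of the 40 tested genes passed the authors' DESeq2 test at an adjusted p of 0.05, against 0.512% of 8596 genes called higher and 0.221% called lower. At such small shares, 0 of 40 does not set these genes apart from genes in general. Of the 91 genes with a symbol past the same ratios, 4 were called higher (4.4%) and 0 lower. At an unadjusted p below 0.05, 9 of the 40 were higher (22.5%) and 1 lower (2.5%), against 4.29% and 4.69% of the 8596 genes. limma on the solved libraries called 0 of the 40, at a background of 0.0% higher and 0.014% lower of 7164 genes. It called only 1 gene in all, so its 0 says nothing about these genes. The median log2 ratio was 0.21, against -0.01 over all genes tested. The LacZ RNAi libraries that chose the genes as low are also the control of this comparison. Single libraries did not overlap upward in 9 of 27 genes with a mean of at least 5 and downward in 0, where 11.3% and 10.0% of all genes did so.

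CG7120 (3L, 8396000 to 8402295) came nearest in the authors' test. Its LacZ RNAi libraries held 55.2, 83.2 and 23.9 normalized counts and its Pum RNAi libraries 122.7, 95.2 and 113.6. The groups did not overlap, and the authors' deposited table gives a log2 fold change of 0.97 ± 0.29 (SE) with a DESeq2 adjusted p of 0.0776. CG9815 held 38.4, 39.4 and 54.2 in LacZ RNAi and 92.2, 76.5 and 86.9 in Pum RNAi, with 0.98 ± 0.34 and an adjusted p of 0.198 in the authors' deposited table.

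In limma this outcome depended on the 2 libraries that stood apart, and the authors' test was not refitted without them. When LacZ RNAi library C and Not1 RNAi library C were left out of the limma fit, a choice made after seeing the data, 8 genes were called higher and 1 lower of 40, beside 4.03% and 3.76% of 7175 genes. The higher genes were CG9815 (log2 difference 1.03 ± 0.13 SE, limma adjusted p 7.58e-05), CG13907 (0.67 ± 0.10, 0.000677), CG15140 (0.77 ± 0.15, 0.00481), CG43795, CG7120, CG11382, CG11882 and CG10126, and the lower gene was CG10550 (-0.73 ± 0.19, 0.0234). The Pum RNAi samples are the same in both fits. Without Not1 RNAi library C alone, CG9815 and CG13907 were called higher, beside 0.266% of 7147 genes, and none lower, beside 0.084%. Without LacZ RNAi library C alone, limma called 0 of the 40, beside 0.0139% higher and 0.0139% lower of 7181 genes.

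In the knockout experiment most of the genes were lower in both pum knockout clones than in WT, in samples that played no part in the choice of genes. In clone 1, 29 of 40 tested genes were lower and 1 was higher by the authors' DESeq2 test, against 25.5% lower and 22.9% higher of 10156 genes. In clone 2, 25 of 40 were lower and 2 higher, against 23.5% and 21.3% of 9925 genes. The median log2 ratio over the 40 genes was -1.67 in clone 1 and -1.39 in clone 2, where all genes tested had -0.05 and -0.03. CG11670, at 0.857 normalized counts in WT, has no adjusted p in either clone.

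Both clones were compared with the same WT samples, so an overlap between them is a count only. It comprised 23 genes lower in both clones and 1 higher in both, with 19.7% and 17.5% of all genes in those classes. The 91 genes with a symbol that passed the same ratios were lower in 54 of 91 cases in clone 1 and in 52 of 90 in clone 2, with medians of -0.97 and -0.87. Of the 90 tested in both clones, 46 (51.1%) were lower in both and 7 (7.78%) higher in both. Numbered genes in general were lower in 24.9% and 22.2% of cases. Single libraries lay wholly below WT in 28 of 35 genes in clone 1 and 26 of 36 in clone 2, where 34.7% and 33.8% of all genes did so. They lay wholly above WT in 1 and 3 genes, against 31.7% and 30.6% of all genes.

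**Figure D4:**
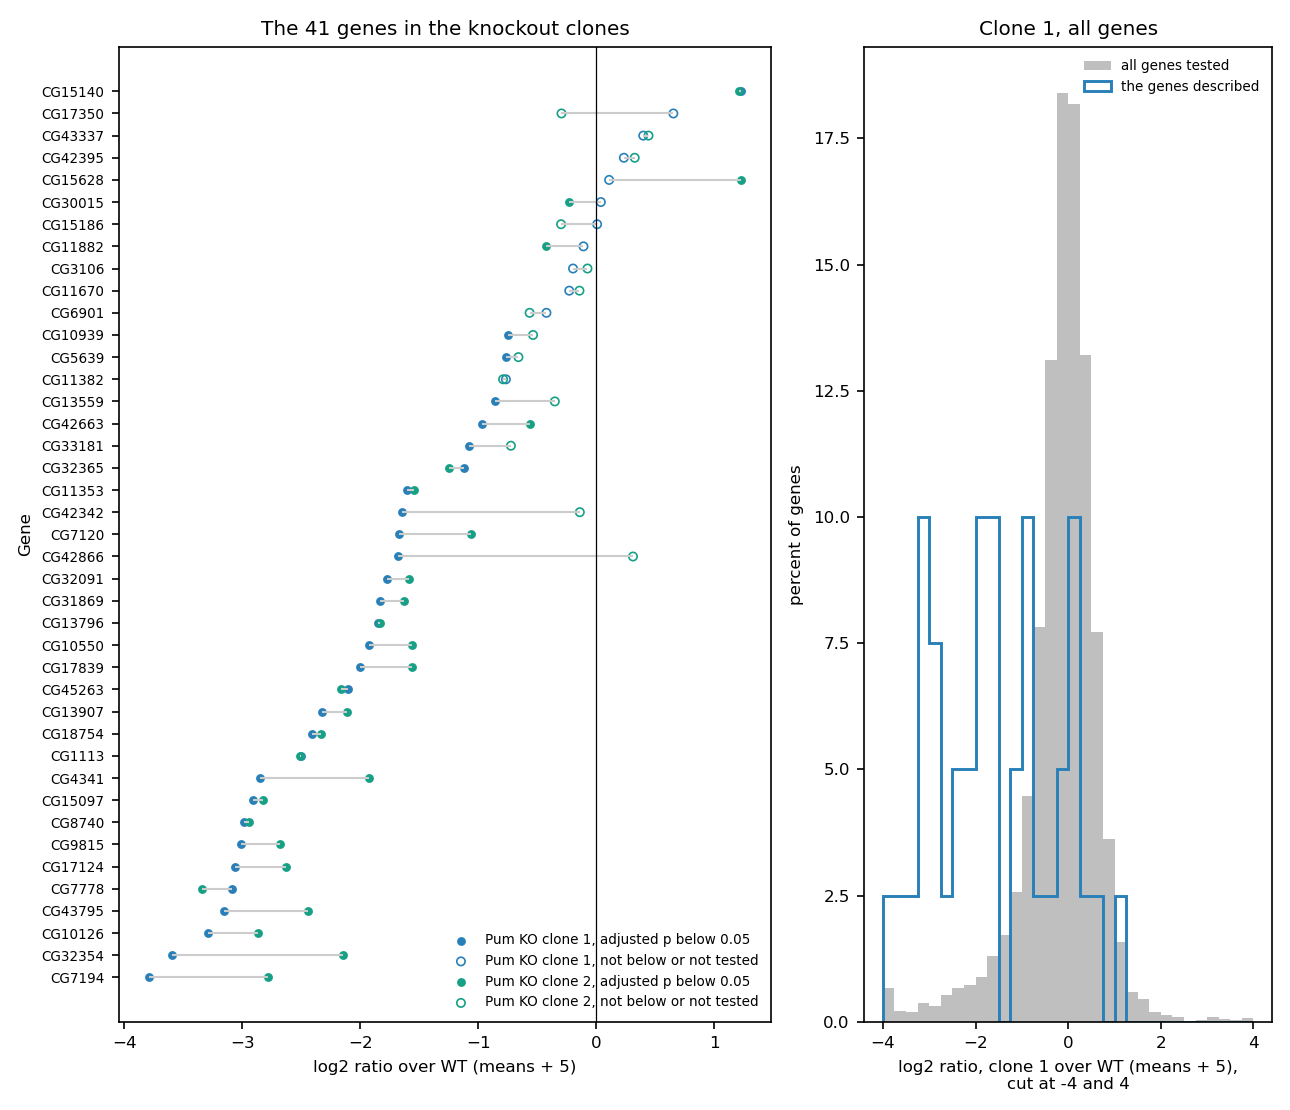
Left, log2 ratio over WT (means plus 5) of the 41 genes in Pum KO clone 1 (blue) and clone 2 (green), joined by a grey line per gene, filled where the authors' adjusted p is below 0.05. Right, the distribution of clone 1 ratios for all genes tested (grey, median -0.05) and for the genes described (blue line, median -1.67). Most genes lie left of 0 in both clones, CG15140 is filled right of 0 in both, and CG42866, CG42342, CG32354 and CG15628 show the widest gaps between clones.

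The genes lower in both clones included the most abundant one. CG45263 held 1839, 1984 and 1857 normalized counts in WT, 426.5, 410.6 and 476.1 in clone 1 and 443.9, 392.4 and 419.9 in clone 2. The WT libraries lay far above all 6 clone libraries, which overlapped each other. The authors' deposited table gives log2 fold changes of -2.12 ± 0.08 (SE) and -2.18 ± 0.09, with DESeq2 adjusted p-values of 1.86e-137 and 1.05e-137. CG13907 went from 1144, 1123 and 986.8 in WT to 216.6, 181.0 and 238.6 in clone 1 and 270.3, 209.3 and 262.3 in clone 2. CG15097 went from 240.9, 242.4 and 255.2 to 30.0, 28.9 and 26.6 and to 37.2, 27.3 and 27.0. For CG13907 and CG15097 too, the clones did not overlap WT.

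CG7194 fell in both clones but farther in clone 1, from 328.0, 346.5 and 293.5 normalized counts in WT to 21.3, 22.8 and 11.7 in clone 1 and 51.1, 38.9 and 38.3 in clone 2. The 3 groups were fully separate. The authors' deposited table gives log2 fold changes of -4.07 ± 0.22 (SE) and -2.91 ± 0.19, with DESeq2 adjusted p-values of 9.04e-72 and 2.44e-49. CG7778 (2L, 8346620 to 8351112) fell by a like amount in both, from 185.0, 165.6 and 162.3 to 14, 16 and 17 in clone 1 and 9.29, 17.5 and 10.1 in clone 2.

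Of the 12 genes with the largest mean of the Not1 and Pop2 ratios, 9 were called lower in both clones, CG10939 and CG5639 in clone 1 only, and CG17350 in neither. Beside this, 23 of all 40 tested genes of the set and 19.7% of all genes were lower in both. The call of CG5639 rests on 5, 3 and 2 reads in WT against 1, 0 and 0 in clone 1, and its DESeq2 adjusted p rounds to 0.05. The authors' deposited table gives CG17350 a log2 fold change of 0.78 ± 0.41 (SE) in clone 1 and -0.42 ± 0.45 in clone 2, with DESeq2 adjusted p-values of 0.106 and 0.487. By limma it was called higher in clone 1 (0.73 ± 0.25 SE, limma adjusted p 0.0146) and not called in clone 2 (-0.21 ± 0.25, 0.481). Among the 9, CG8740 (blo) went from 58.1, 32.9 and 32.5 normalized counts in WT to 0.666, 0.760 and 1.07 in clone 1, 1 read a library, and to 1.86, 0 and 1.13 in clone 2. CG31869 went from 54.9, 40.6 and 35.4 to 6.66, 10.6 and 8.52 and to 10.2, 10.7 and 11.3. CG4341 (Tmtc2), which is not among the 12, went from 88.2, 79.0 and 64.9 to 5.33, 5.32 and 8.52 in clone 1 and 19.5, 13.6 and 16.9 in clone 2. For CG8740, CG31869 and CG4341 the lowest WT library lay above every clone library. CG43795, CG10126, CG17124, CG9815 and CG18754, the last with the RefSeq synonym SP61 of the serine protease series, were also called lower in both clones by the authors' test, with deposited log2 fold changes between -2.69 and -4.95. CG9815, which had the smallest adjusted p in Pum RNAi once the outlying libraries were left out, was at 71.0, 53.7 and 44.3 normalized counts in WT, at 0.666, 0.760 and 6.39 in clone 1 and at 6.5, 4.87 and 2.25 in clone 2.

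CG15140 (2L, 17286240 to 17287663) was the 1 gene higher in both clones. It held 41.9, 50.4 and 35.4 normalized counts in WT, 106.0, 108.7 and 105.4 in clone 1, and 108.7, 106.1 and 101.3 in clone 2. The clones lay close together and wholly above WT. The authors' deposited table gives log2 fold changes of 1.31 ± 0.21 (SE) and 1.29 ± 0.21, with DESeq2 adjusted p-values of 3.42e-09 and 1.15e-08. In the RNAi table it also lay wholly higher in Pum RNAi (52.9, 61.0 and 51.4) than in LacZ RNAi (26.6, 33.9 and 41.2), where the authors' deposited table gives a DESeq2 adjusted p of 0.162. CG15628 was the second gene higher in clone 2, at 12.1, 6.82 and 12.4 against 3.23, 0 and 1.48 in WT.

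The clones differed from each other in 10 of 33 genes by a limma contrast of their libraries, a test added after seeing the data. Of these 8 were lower and 2 higher in clone 1, beside 12.3% lower and 10.6% higher of 7600 genes. CG42866 (2L, 19961224 to 19961685) held 12.9, 8.77 and 14.8 normalized counts in WT, 0, 0 and 1.07 in clone 1 and 20.4, 12.7 and 15.8 in clone 2. Clone 1 was thus near 0 while clone 2 overlapped WT. CG42342 (3R, 16502770 to 16571363) held 123.7, 108.6 and 92.9 in WT, 30.7, 26.6 and 36.2 in clone 1 and 91.0, 91.5 and 111.5 in clone 2, with clone 2 again overlapping WT. CG30015 was near WT in both clones (1756, 1826 and 1679 in WT, 1768, 1719 and 1920 in clone 1), and clone 2 at 1509, 1518 and 1444 was called lower with a log2 fold change of -0.24 ± 0.07 (SE) and a DESeq2 adjusted p of 0.00273 in the authors' deposited table.

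Among genes called in 1 clone only by the authors' test, CG33181, CG10939 and CG13559 were lower in clone 1 and CG11882 in clone 2. limma called CG33181 lower in clone 2 too (-0.74 ± 0.25 SE, limma adjusted p 0.0144), in 9 settings but not in 2. The call of CG11882 in clone 2 was kept in 6 limma settings and lost in 5. CG10939 (Sip1) held 38.7, 43.9 and 36.9 normalized counts in WT, 20.0, 15.2 and 29.8 in clone 1 and 27.9, 26.3 and 23.6 in clone 2. Both clones lay below WT, and the limma difference between clones was -0.25 ± 0.20 (SE) with an adjusted p of 0.418, so a call in 1 clone alone is not a difference between clones here.

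Markers of the parental cell type moved with this comparison. Of 12 hemocyte markers, the authors' test called 7 lower and 5 higher in clone 1 and 5 lower and 4 higher in clone 2; their summed level was 18400 in WT, 16700 in clone 1 and 17000 in clone 2. Hml, a hemocyte lectin, was at 761 in WT, 68.7 in clone 1 and 202 in clone 2, and the scavenger receptor crq at 1420, 313 and 306. Other markers of the list lay above WT: the collagen genes Col4a1 (67.4 in WT, 188 and 441 in the clones) and vkg (28.9, 196 and 377), and the GATA cofactor ush (1410, 2120 and 2400). Of 5 epithelial markers, 4 were called higher in Not1 RNAi and in Pop2 RNAi, beside 25.7% and 18.8% of all genes tested. Their sum was 5740 and 4700 against 2330 in LacZ RNAi, and no defining marker of that list but grh was under 20. Of the hemocyte markers, 2 were higher and 3 lower in Not1 RNAi, and 2 higher and 4 lower in Pop2 RNAi. Germline and gonad markers gave 2 higher and 1 lower, then 3 and 1. Neuronal markers gave 1 higher and 1 lower, then 0 and 1. Muscle, fat body and testis markers gave 0 calls. Against WT the epithelial sum was 5610 in clone 1 and 4600 in clone 2 (5070 in WT), with 1 marker higher and 1 lower in clone 1 and 2 higher and 1 lower in clone 2; crb, a determinant of apical polarity, was at 496, 26.2 and 62.4. In clones 1 and 2 the counts higher and lower were 2 and 1 in both for germline and gonad markers, 2 and 1 and then 1 and 1 for neuronal markers, 0 and 2 and then 0 and 3 for muscle markers, 0 and 1 and then 0 and 0 for fat body markers, and 1 and 0 and then 0 and 0 for testis markers. The part of these shifts in the results on the 41 genes was not tested. Of 8 CCR4-NOT subunits found, 5 were called higher and 0 lower in clone 1 and 4 higher and 1 lower in clone 2, with Pop2 at 770 in WT, 1140 in clone 1 and 1220 in clone 2. Of 18 other genes of mRNA decay, 6 were higher and 6 lower in clone 1, and 4 higher and 5 lower in clone 2. The 18 include pum, the gene knocked out. Beside all these clone counts, 22.9% of all genes tested were called higher and 25.5% lower in clone 1. In clone 2 the shares were 21.3% and 23.5%.

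In WT, the control that the choice did not use, the 41 genes were again low in the median but less so than in LacZ RNAi. Their median was 43.6 normalized counts, or 19.2 per kb against 58.9 for all detected genes, and 9 were under 10. The tables were normalized separately, and WT over LacZ RNAi had a median log2 ratio of 1.25 over 39 genes where all 8919 genes had 0.54. The clones had medians of 7.39 and 12.3 normalized counts, or 2.23 and 4.91 per kb against 62.1 and 59.2 for all detected genes. The LacZ RNAi median of 7.58 is on the scale of the other table, so it cannot be compared with them directly. The highest WT levels were those of CG45263, CG30015, CG13907, CG42663 and CG7194.

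The 41 genes lie on all large chromosome arms, with 4 on X, 9 on 2L, 8 on 2R, 9 on 3L and 11 on 3R. Their annotated spans were long for numbered genes. The median span of the 39 protein-coding genes found in the Ensembl annotation was 6296 nt, against 2164 nt for 3147 numbered genes and 2860 nt for all 8425 genes tested, and 10 of the 39 (25.6%) spanned more than 20000 nt, against 4.96% and 9.31%. Their 5′ untranslated regions had a median of 442 nt, against 143 and 186 nt, and their coding sequences 1869 nt, against 1194 and 1428 nt. Their 3′ untranslated regions had a median of 320 nt, against 223 nt for numbered genes and 304 nt for all genes, and 8 of the 39 (20.5%) were longer than 1000 nt, against 11.6% and 18.2%.

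No 2 of the genes lay within 10 kb of each other, and 4 pairs lay within 20 kb, a distance chosen after the pairs were seen. CG9815, CG43795 and CG13559 formed a row on 2R with gaps of 10.8 and 10.9 kb. CG17124 and CG31869 were 15.7 kb apart on 2L, and CG7120 and CG32354 13.6 kb apart on 3L. Of the 78 nearest tested neighbours that are not among the 41, 14 (17.9%) had both ratios at 1 or more, against 7.61% of all 9051 genes. The highest was Tie, a receptor tyrosine kinase gene 1024 nt from CG11353, with log2 ratios of 6.85 in Not1 RNAi and 5.15 in Pop2 RNAi.

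Some genes lie on or beside a gene that rose too, with little or no shared exon sequence. CG6901 lies within Sulf1 on the other strand and shares no exon base with it; Sulf1 had log2 ratios of 2.91 and 2.22. CG3106 shares 51 nt, 1.97% of its exon bases, with Ptpmeg2 on the same strand (ratios 3.01 and 1.98). CG33181 shares 162 nt, 3.05% of its exon bases, with otu on the other strand (3.21 and 2.21). Reads in the stretch shared with otu cannot be assigned without the strand, and the sources used here do not say whether counting used it. Strand cannot assign reads in the stretch that CG3106 shares with Ptpmeg2. Ptpmeg2 was at 578 normalized counts in LacZ RNAi, 4680 in Not1 RNAi and 2290 in Pop2 RNAi, and CG3106 at 1.06, 28.7 and 26.4. Whether reads of Ptpmeg2 were counted for CG3106 was not tested. By contrast, CG42395 lies within LPCAT and CG13907 within Usp10, hosts with ratios of 0.12 and 0.14 and of -0.12 and -0.27.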

How the data were processed

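Each signal column holds, per the file headers, the authors' mean of the normalized count over a group, also given per kb of gene length. Fitted log2 fold changes with standard errors are likewise the authors' own. The deposited p-value columns are p-values and adjusted p-values of the authors' DESeq2 test, and a gene was called at an adjusted p below 0.05. The 2 tables, of 12 RNAi and 9 knockout samples, were normalized separately. The submitters' processing notes name fastp 0.14.1, HISAT2 2.1.0, UMI-tools 1.0.1, featureCounts, DESeq2 and dm6. Lines without a gene, 7 in either table (0.0448% and 0.0669% of the signal), were left out.

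Because a mean of 3 normalized counts is a sum of whole multiples of 3 steps, the reads of single libraries were solved for means up to 5000 with exactly 1 solution (Python 3.11.15, numpy 2.4.6), a step tested on simulated data. limma 3.58.1 in R 4.3.3 was run on log2(normalized count + 5) of genes with a mean of at least 5, with Benjamini-Hochberg adjustment over all genes tested. Ratios are log2 of means plus 5, which understates changes of low genes. The labels call the samples biological replicates without naming separate sources, so p-values measure the spread between these samples. Limits on 3 reads cover counting error only.

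The genes, gene lists and tests were chosen with earlier results of these data known. Genes were named by size of the ratios, level, excess of one knockdown over the other, smallest p in the clones, closeness to the threshold and WT level. Marker lists covered hemocytes, germline and gonad, testis, neurons, muscle, epithelium, fat body and gut. Gene models came from Ensembl BDGP6 and names from RefSeq Release 6; sequences were not used here.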

Additional observations from a re-analysis of the deposited data

Results flagged for a closer look

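Of the genes, 10 differed between the 2 knockout clones, each set against the same WT samples, by a limma contrast of the clones with 3 libraries each. Clone 1 was lower than clone 2 by a log2 difference of -1.98 ± 0.24 (SE, limma adjusted p 1.11e-06) for CG42866 and of -1.51 ± 0.15 (adjusted p 5.95e-08) for CG42342, both near the WT level in clone 2. The difference was -1.48 for CG32354, -1.04 for CG7194, -0.93 for CG4341 (Tmtc2), -0.76 for CG43795, -0.61 for CG7120 and -0.41 for CG42663, 6 genes that were below WT in both clones. Clone 1 was higher by 0.27 for CG30015 and by 0.94 for CG17350. CG17350 held 28.0, 39.5 and 26.6 normalized counts in clone 1, 13.0, 11.7 and 16.9 in clone 2 and 30.1, 11 and 13.3 in WT, so that WT overlapped both. Each clone is 1 isolate, so differences between isolates and effects of the knockout cannot be told apart.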

How the results depend on the processing

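The number of genes that met the conditions, 41, was 94 with a pseudocount of 1, 85 and 24 with a threshold of 1.5 and 2.5, and 190 by the authors' fitted log2 fold change, and ranged from 36 to 47 when single libraries were left out. The 0 calls in Pum RNAi became 1 at an adjusted p of 0.1, 0 to 2 in limma without single libraries, and 9 without LacZ RNAi library C and Not1 RNAi library C. In limma without single libraries, calls ranged from 27 to 30 in clone 1 and 25 to 29 in clone 2, of 33 to 36 genes tested. With all libraries limma tested 33 and called 2 higher and 26 lower in clone 1, beside 31.2% and 33.3% of 7600 genes. In clone 2 it called 1 higher and 25 lower, beside 28.8% and 31.0%. Genes differing between the clones ranged from 9 to 12 without single libraries. Without the filter on low means they were 7 of 41, beside 2.29% higher and 3.35% lower of 17122 genes. The median log2 ratio was 0.31 in Pum RNAi, -2.14 in clone 1 and -1.77 in clone 2 with a pseudocount of 1, and 0.33, -2.36 and -2.00 by the authors' fitted values; with a pseudocount of 10 it was -1.30 and -1.05 in the clones. Settings were also tried in the clones on genes named for a call there. Of these, 407 kept the side of the threshold, 16 passed it newly and 5 no longer passed it. In 0 did the direction reverse with a call in either test, and direction was not compared where neither test gave a call. No paired analysis was possible because the deposited columns are group means and the solved libraries carry no replicate numbers. The planned edgeR and DESeq2 count fits were not run. Depth limits the lowest genes, where 1 read decides a control value.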
